A study of Mus musculus with 2 samples.

Results

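The genes of the receptors for interleukin 17 (IL-17) and interleukin 22 (IL-22), with the adapter and 2 regulators that act behind them, were followed through the layers of inflamed mouse skin. The 8 genes are Il17ra, Il17rc, Il17re, Il22ra1, Il10rb, Traf3ip2, Nfkbiz and Zc3h12a. They were taken by their symbols from the 19465 genes of the count tables, and all 8 were found. Spatial transcriptomics (Visium CytAssist) hybridizes probe pairs to formalin-fixed sections and captures them on an array of barcoded spots, so that every captured molecule, counted by its tag (unique molecular identifier, UMI), is tied to a gene and a position. One section of 10 μm came from an S1pr2fl/fl mouse and 1 from an S1pr2fl/fl K14-Cre mouse, both aged 8 weeks, both depilated on the back, and both given 62.5 mg of 5% imiquimod (IMQ) cream a day for 7 days. Both animals carried floxed S1pr2, the gene of sphingosine 1-phosphate receptor 2. Only the second carried Cre under the keratin 14 promoter, which is active in basal keratinocytes and hair follicles. No section of untreated skin was analysed here.

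IMQ activates toll-like receptor 7 and drives a psoriasis-like inflammation in which IL-17 and IL-22 from T cells act on keratinocytes. IL-17A and IL-17F signal through IL-17RA paired with IL-17RC, IL-17C through IL-17RA paired with IL-17RE, and the adapter Act1 (Traf3ip2) links these receptors to NF-κB and MAP kinases. IL-22 binds IL-22RA1 paired with IL-10RB and signals through STAT3. IκBζ (Nfkbiz) is an inducible nuclear partner of NF-κB that many IL-17 target genes need, and Regnase-1 (Zc3h12a) is a ribonuclease that degrades inflammatory transcripts and limits IL-17 signalling.

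In the mouse genome (GRCm38.p6, the mm10 build) Il17re (ENSMUSG00000043088, chr6:113458699-113470758) and Il17rc (ENSMUSG00000030281, chr6:113471455-113483163) are direct coding neighbours. Il17ra (ENSMUSG00000002897) lies on the same chromosome at chr6:120463181-120483731. Il22ra1 (ENSMUSG00000037157, chr4:135728159-135755383) neighbours Ifnlr1, the receptor gene of interferon lambda. Il10rb (ENSMUSG00000022969, chr16:91406157-91425834) lies between the interferon receptor genes Ifnar2 and Ifnar1. The others are Traf3ip2 (ENSMUSG00000019842, chr10:39612934-39655307), Nfkbiz (ENSMUSG00000035356, chr16:55811375-55838954) and Zc3h12a (ENSMUSG00000042677, chr4:125118414-125127881).
Promoter sequence is shown for Il22ra1 and Zc3h12a, the 2 members that were at least 2-fold higher in the epidermis than in the other 3 layers in both sections (below). Each run is the 250 bases before the gene's start in RefSeq, 5′ to 3′ on the gene's strand, from chr4:135727909-135728158 (plus strand) and chr4:125127882-125128131 (minus strand). Capitals mark a match to TGANTCA, the letters searched for as an AP-1 motif, in which N stands for any base and is A here.
Il22ra1: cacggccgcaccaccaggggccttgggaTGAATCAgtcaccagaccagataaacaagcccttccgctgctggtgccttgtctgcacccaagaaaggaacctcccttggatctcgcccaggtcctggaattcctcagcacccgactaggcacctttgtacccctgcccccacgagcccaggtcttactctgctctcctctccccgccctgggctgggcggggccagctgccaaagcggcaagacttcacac
Zc3h12a: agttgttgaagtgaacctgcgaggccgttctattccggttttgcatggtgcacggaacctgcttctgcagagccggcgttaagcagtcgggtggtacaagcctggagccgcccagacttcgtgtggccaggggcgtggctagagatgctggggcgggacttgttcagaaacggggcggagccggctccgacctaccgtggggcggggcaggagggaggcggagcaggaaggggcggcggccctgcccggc
Both strands of these windows were searched for a motif of NF-κB, for TTCNNNGAA (STAT), for the AP-1 letters and for the TATA box (TATAAA). The AP-1 letters in Il22ra1, at position -222 from the start, were the only match. Of 32851 RefSeq promoter windows of the same length, 6.75% hold them. The search describes letters and says nothing of which factor binds.

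The sections held 1282 spots with 5315351 UMIs (S1pr2fl/fl) and 981 spots with 2845826 UMIs (S1pr2fl/fl K14-Cre), and 357 spot barcodes occurred in both because the arrays share positions. Spots with at least 500 UMIs were given to epidermis, dermis, fat or muscle by marker genes, which left 366 and 308 spots in no layer. Independent markers were highest in their own layer for 8 of 8 epidermis, 6 of 6 fat and 6 of 6 muscle genes in both sections, and for 5 and 6 of 7 dermis genes. A spot covers several cells, and fewer cells of a type cannot be told apart from less RNA per cell. Layers were not pure: the keratinocyte lists that define the epidermis summed to 96629 and 47481 counts per 1000000 UMIs of the layer (CPM) in the epidermis of the S1pr2fl/fl and the K14-Cre section, and still to 13012 and 1482 CPM in muscle. Muscle check markers reached 1668 and 14339 CPM in the dermis layer and 11319 and 33274 CPM in the fat layer, where fat check markers were at 2105 and 2676 CPM, against 31680 and 56777 CPM in muscle itself. The fat layer thus carried a large muscle signal in both sections, and a larger one in K14-Cre. As a background, 1226 olfactory, vomeronasal, taste and trace amine receptor genes (chemosensory receptor genes) were counted, which skin should hardly express: their mean per gene was 1.14 and 7.96 CPM in the epidermis. S1pr2 itself had 154 and 54 UMIs over all spots, and in the epidermis 23 and 10 UMIs (19.2 and 16.9 CPM), a ratio of 0.883 (0.375 to 1.93). A loss of S1pr2 in the epidermis of the K14-Cre section was thus not detectable at this depth, and whether the probes lie in the floxed part is not known. Each genotype had 1 section, so no test of any difference was possible. The intervals given are 95% intervals that cover counting error only, and the UMIs were more clumped than counting error allows. Over all spots, the UMIs of a gene lay in fewer spots than their number and the depth of the spots would give in 15 of 15 pairs of gene and section with UMIs, with a dispersion (variance over that of counting) of 1.19 to 3.30. Within the epidermis the dispersion was 0.662 to 4.31.

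**Figure D1:**
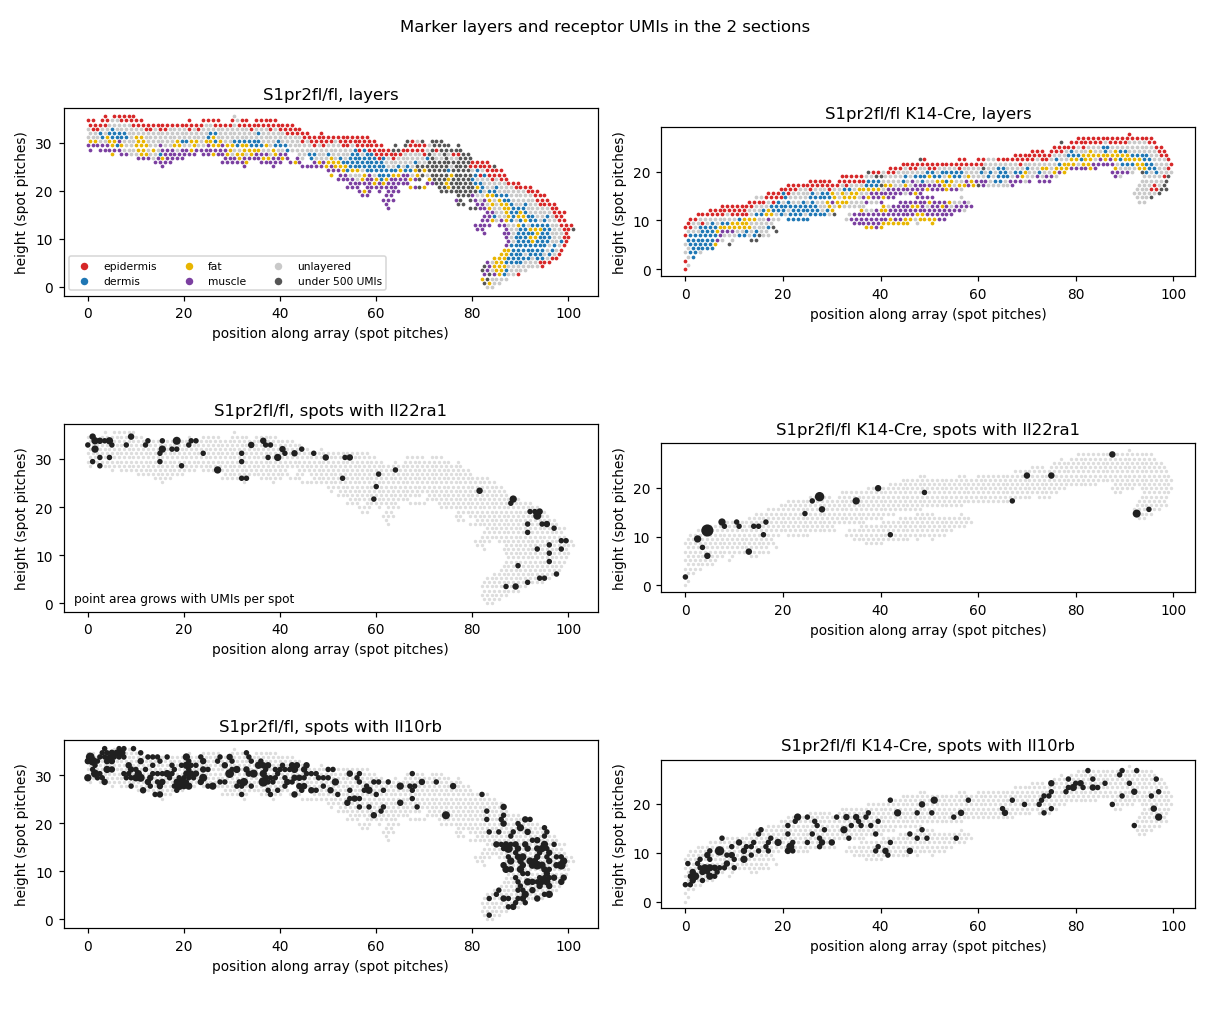
Positions of spots in the S1pr2fl/fl (left) and S1pr2fl/fl K14-Cre (right) sections, with both axes in spot pitches; the skin surface is at the upper edge. The top row shows the marker layers of connected spots, and the rows below show spots with Il22ra1 and Il10rb UMIs, with point area growing with the UMIs of the spot. Il22ra1 is most frequent among epidermis spots, while Il10rb covers the depth of the tissue. Most spots with Il22ra1 still lie outside the epidermis layer, to which 33 of 79 belong in S1pr2fl/fl and 11 of 28 in K14-Cre (counted over all spots).

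Il22ra1, the chain that makes a cell responsive to IL-22, was at least 2-fold higher in the epidermis than in the other 3 layers in both sections. In the S1pr2fl/fl section its level was 43.4 CPM in the epidermis (52 UMIs), 14.3 in the dermis (11 UMIs), 9.28 in fat (5 UMIs) and 11.2 in muscle (8 UMIs). In the K14-Cre section it was 52.5 CPM in the epidermis (31 UMIs), 10.3 in the dermis (6 UMIs), 2.30 in fat and 2.10 in muscle, with 1 UMI in each of the last 2. The epidermis was highest in both sections, and the levels of the other layers were within counting error of each other. The epidermis exceeded the other 3 layers 3.65-fold (2.21 to 6.19) in the S1pr2fl/fl section and 9.79-fold (4.40 to 24.6) in the K14-Cre section. The spots of no layer, which these ratios leave out, had 17.0 CPM (35 UMIs) in S1pr2fl/fl and 26.5 CPM (20 UMIs) in K14-Cre. In both sections the epidermis was higher in 4 of 4 segments cut along the skin, at 37.1 to 53.2 against 9.66 to 16.6 CPM in S1pr2fl/fl. In the K14-Cre section the segments ranged from 11.7 to 179 CPM in the epidermis and from 0 to 8.50 CPM in the other layers, with as few as 2 epidermis UMIs in a segment. Whether the 2 ratios differ was not tested, and the higher keratinocyte signal in the deeper layers of the S1pr2fl/fl section stands beside them.

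Il22ra1 was also lower away from the epidermis. It was at 27.1 CPM in the S1pr2fl/fl spots next to the epidermis and at 27.9 CPM in those of the K14-Cre section, and at 7.96 and 6.35 CPM 4 or more spots away. Sorting spots by keratinocyte marker share instead of by layer gave 42.9 and 52.4 CPM in the richest of 5 equal groups. The poorest group had 14.2 and 6.58 CPM. The richest group rests on the same markers as the epidermis layer and has as many spots, 219 and 189. It therefore holds nearly the same spots and is no independent view. Epidermis spots were split in each section at its median share of differentiated markers among the basal and differentiated keratinocyte markers. This median was 60.2% in S1pr2fl/fl and 34.2% in K14-Cre, so the sides are not the same part of the epidermis in both. The basal side carried 29 Il22ra1 UMIs (48.8 CPM) and the differentiated side 23 (38.0 CPM) in S1pr2fl/fl. In K14-Cre they carried 22 (60.7 CPM) and 9 (39.5 CPM), and the intervals of both ratios include 1. Between the sections, the epidermis level differed by log2 0.28 (-0.42 to 0.94), K14-Cre over S1pr2fl/fl. The K14-Cre value depended on few spots, since 31 UMIs lay in 11 of 189 spots and 11 of them in a single spot. Without the richest spot of each section the log2 ratio was -0.21, and with each spot counted once it was -0.56. No direction is read for Il22ra1 between the sections.

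Il10rb, the second chain of the IL-22 receptor, which is also part of the receptors of IL-10 and interferon lambda, was not highest in the epidermis but in dermis and fat. Its level in the S1pr2fl/fl section was 76.7 CPM in the epidermis (92 UMIs), 128.8 in the dermis (99 UMIs), 152.2 in fat (82 UMIs) and 65.8 in muscle (47 UMIs). The K14-Cre section had 45.7 CPM in the epidermis (27 UMIs), 98.1 in the dermis (57 UMIs), 71.3 in fat (31 UMIs) and 35.7 in muscle (17 UMIs). Dermis and fat did not differ from each other beyond counting error in either section, nor did epidermis and muscle, the lowest layer in both. In K14-Cre the step from epidermis to fat, 1.56-fold (0.901 to 2.72), was within counting error as well. The spots of no layer had 94.9 CPM (195 UMIs) in S1pr2fl/fl and 79.6 CPM (60 UMIs) in K14-Cre. The epidermis was at 0.680 times (0.528 to 0.870) the level of the other layers in S1pr2fl/fl and at 0.649 times (0.409 to 0.999) in K14-Cre. In S1pr2fl/fl this ratio, log2 -0.56, was near the median of all genes, -0.59. In K14-Cre it was log2 -0.62, against a median of 0.05. Il10rb was also higher where macrophage markers such as C1qa and Cd68 were: the 10% of spots richest in them had 1.72-fold (1.28 to 2.27) the level of the remaining spots in S1pr2fl/fl and 1.73-fold (1.13 to 2.56) in K14-Cre. Almost none of these spots belonged to the epidermis, 1.82% and 0%. Il10rb was lower in K14-Cre in the epidermis, by 1.68-fold (1.08 to 2.68), and over all spots, by 1.44-fold (1.21 to 1.70).

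**Figure D2:**
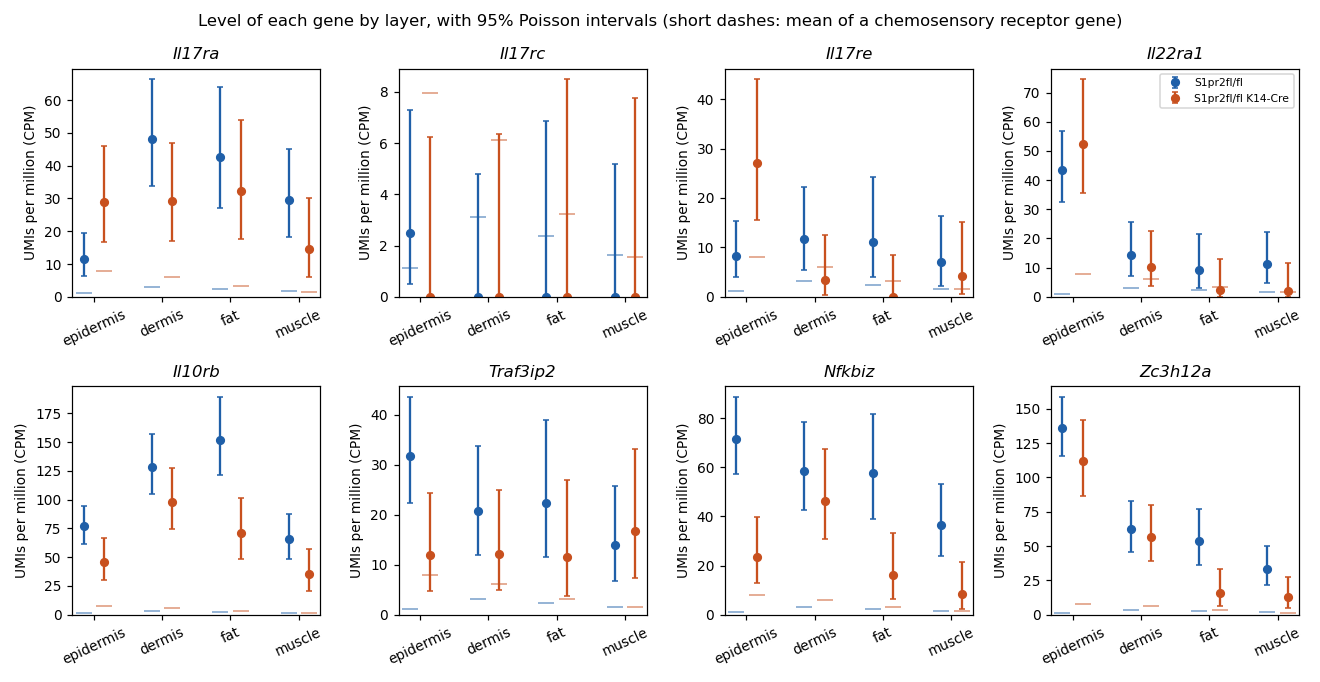
Level of the 8 genes (CPM, each panel with its own scale from 0) in epidermis, dermis, fat and muscle of the S1pr2fl/fl (blue) and S1pr2fl/fl K14-Cre (orange) sections. Points are 1 section each with exact Poisson 95% intervals, and short dashes give the mean of a chemosensory receptor gene. Il22ra1 and Zc3h12a are highest in the epidermis of both sections, and Il10rb is highest in dermis and fat.

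Il17ra, the chain shared by the IL-17 receptors, was not enriched in the epidermis of the S1pr2fl/fl section. Its level there was 11.7 CPM (14 UMIs), against 48.1 in the dermis (37 UMIs), 42.7 in fat (23 UMIs) and 29.4 in muscle (21 UMIs), so that the epidermis stood at 0.291 times (0.152 to 0.517) the level of the other layers. It was the lower one in 4 of 4 segments. The step was sharp: spots next to the epidermis already had 33.9 CPM (22.9 to 48.4), and spots 4 or more away had 35.5. In the K14-Cre section the levels were 28.8 CPM in the epidermis (17 UMIs), 29.3 in the dermis (17 UMIs), 32.2 in fat (14 UMIs) and 14.7 in muscle (7 UMIs). None of these neighbours in level differed beyond counting error, and the epidermis was at 1.13 times (0.598 to 2.05) the other layers.

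Il17ra was thereby higher in the K14-Cre epidermis, 2.47-fold (1.14 to 5.40), or log2 1.30. This value rested on 1 spot, which held 8 of the 17 UMIs. Without the richest spot of each section the log2 ratio was 0.73, with each spot counted once 0.61, and with the TMM factor of edgeR 0.47, all short of 2-fold. Chemosensory receptor genes in the same spots were 6.98-fold higher in K14-Cre, with means of 1.37 and 4.70 UMIs per gene. With these means taken off, Il17ra also fell short of 2-fold. Any further part of this background in the difference was not tested. Over all spots Il17ra had 164 and 81 UMIs (30.9 and 28.5 CPM), a ratio of 0.922 (0.698 to 1.21).

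Il17rc and Il17re, the partner chains, were the weakest signals. Il17rc had 8 UMIs in 4 of 1282 spots of the S1pr2fl/fl section, of which 3 lay in a single epidermis spot and 5 in spots of no layer. In the K14-Cre section it had 0 UMIs in 981 spots, which allows up to 1.05 CPM. The S1pr2fl/fl level of 1.51 CPM was 1.43-fold that limit. The counting interval of the ratio, K14-Cre over S1pr2fl/fl, was 0 to 1.09 and so includes no difference. Only 28.9% of chemosensory receptor genes had fewer UMIs or none, and the S1pr2fl/fl level is read as background. Whether keratinocytes carried Il17rc RNA was not detectable at this depth.

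Il17re, the chain that pairs with IL-17RA for IL-17C, was layered in the K14-Cre section, a contrast between the sections that was not tested. The S1pr2fl/fl section had 8.34 CPM in the epidermis (10 UMIs), 11.7 in the dermis (9 UMIs), 11.1 in fat (6 UMIs) and 7.00 in muscle (5 UMIs), with no difference beyond counting error. The K14-Cre section had 27.1 CPM in the epidermis (16 UMIs), 3.44 in the dermis (2 UMIs), 0 in fat and 4.20 in muscle (2 UMIs). Its epidermis exceeded the other layers 10.1-fold (3.26 to 41.5). The spots of no layer, which this ratio leaves out, had 19.9 CPM (15 UMIs). The epidermis level was higher in 4 of 4 segments, but on few UMIs: 10 against 2, 2 against 1, 3 against 0 and 1 against 1. Of the 16 epidermis UMIs, 14 lay on the differentiated side (61.4 CPM, against 5.52 on the basal side). The mean chemosensory receptor gene was also higher in this epidermis, at 7.96 CPM against 6.12 in the dermis, 3.24 in fat and 1.55 in muscle. The 16 UMIs came from 8 spots, at most 4 from one, with the dispersion of 4.31 that was the highest of any member in the epidermis, so the counting intervals are too narrow here. The epidermis ratio between the sections was 3.25-fold (1.39 to 8.01), log2 1.70. It was 1.79 without the richest spots and 1.22 with each spot counted once, and fell to 0.87 with the TMM factor. Chemosensory receptor genes were higher by more, log2 2.80, although 98.4% of them had a lower level than Il17re in the K14-Cre epidermis. Over all spots the 57 and 35 UMIs gave a ratio of 1.15 (0.731 to 1.78).

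Traf3ip2, the gene of the adapter Act1, was weakly layered and had the largest difference of the 7 genes over all spots. In S1pr2fl/fl it had 31.7 CPM in the epidermis (38 UMIs), 20.8 in the dermis (16 UMIs), 22.3 in fat (12 UMIs) and 14.01 in muscle (10 UMIs), and the epidermis was 1.69-fold (1.05 to 2.71) over the other layers. Its highest level was in the spots of no layer, 45.8 CPM (94 UMIs). Spots of any layer at 1 and 2 steps from the epidermis had 40.7 and 42.9 CPM. In K14-Cre the levels were flat, 11.9 CPM in the epidermis (7 UMIs), 12.05 in the dermis (7 UMIs), 11.5 in fat (5 UMIs), 16.8 in muscle (8 UMIs) and 9.28 in spots of no layer (7 UMIs). The K14-Cre level was 2.71-fold lower (1.87 to 4.04) over all spots, 2.67-fold (1.18 to 7.09) in the epidermis and 4.93-fold (2.30 to 12.6) in the spots of no layer. In the dermis (16 and 7 UMIs), fat (12 and 5 UMIs) and muscle (10 and 8 UMIs) there was no difference beyond counting error. In the K14-Cre section 75.8% of chemosensory receptor genes had a lower level than Traf3ip2 in the epidermis and 58.3% in the spots of no layer, where their mean was 8.60 CPM, so that both values lie near the background.

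Nfkbiz, the gene of IκBζ, was broadly present in S1pr2fl/fl, at 71.7 CPM in the epidermis (86 UMIs), 58.5 in the dermis (45 UMIs), 57.6 in fat (31 UMIs), 36.4 in muscle (26 UMIs) and 75.5 in the spots of no layer (155 UMIs). The epidermis was 1.42-fold (1.05 to 1.91) over the other layers. In K14-Cre the dermis had the highest level, 46.5 CPM (27 UMIs), followed by 33.2 in the spots of no layer (25 UMIs), 23.7 in the epidermis (14 UMIs), 16.1 in fat (7 UMIs) and 8.40 in muscle (4 UMIs). The step from dermis to epidermis, 1.96-fold (0.993 to 4.05), was not beyond counting error. All 14 epidermis UMIs lay on the basal side there (38.6 CPM). In S1pr2fl/fl the basal and differentiated sides had 46 and 40 UMIs (77.4 and 66.1 CPM). The sides were cut at different marker shares in the 2 sections, and this contrast was not tested. The 10% of K14-Cre spots richest in macrophage markers had 2.45-fold (1.32 to 4.30) the Nfkbiz level of the rest, against 1.13-fold (0.729 to 1.69) in S1pr2fl/fl, a contrast that was not tested. Nfkbiz was lower in K14-Cre by 2.40-fold (1.87 to 3.11) over all spots, 3.03-fold (1.71 to 5.76) in the epidermis, 3.57-fold (1.54 to 9.61) in fat and 4.34-fold (1.504 to 17.1) in muscle. In the dermis the 1.26-fold (0.765 to 2.11) difference was within counting error.

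Zc3h12a, the gene of Regnase-1, was the other member at least 2-fold higher in the epidermis than in the other 3 layers in both sections. S1pr2fl/fl had 135.9 CPM in the epidermis (163 UMIs), 62.4 in the dermis (48 UMIs), 53.8 in fat (29 UMIs) and 33.6 in muscle (24 UMIs). K14-Cre had 111.7 CPM in the epidermis (66 UMIs), 56.8 in the dermis (33 UMIs), 16.1 in fat (7 UMIs) and 12.6 in muscle (6 UMIs). The spots of no layer had 119.3 CPM (245 UMIs) in S1pr2fl/fl, near the epidermis level, and 58.3 CPM (44 UMIs) in K14-Cre. The order epidermis, dermis, fat, muscle was the same in both, and the step from epidermis to dermis exceeded counting error in both. The epidermis was 2.72-fold (2.11 to 3.52) and 3.62-fold (2.45 to 5.40) over the other layers, and higher in 4 of 4 segments of each section. In K14-Cre 1 of these segments had 1 epidermis UMI (19.8 CPM) against 7 UMIs (16.8 CPM) in the other layers, and another had 3 against 5 UMIs. In S1pr2fl/fl the level stayed at 124.3 and 138.4 CPM 1 and 2 spots from the nearest epidermis spot, where sebaceous gland markers were at 1243 and 2699 CPM. The 10% of spots richest in those markers had 1.51-fold (1.18 to 1.92) the Zc3h12a level of the rest. In K14-Cre Zc3h12a was at 96.4 CPM at 1 spot and 45.8 CPM at 2 spots, where the same markers were at 2580 and 2132 CPM. There the 10% of spots richest in them were at 0.786 times (0.397 to 1.42) the rest. Over all spots Scd1 gave most of the marker sum, 759.5 of 1271 CPM in S1pr2fl/fl and 917.5 of 1244 CPM in K14-Cre. The sum was higher in fat than in dermis, at 1715 against 1367 CPM and 1962 against 934.7 CPM, so it cannot be read as sebaceous gland alone. The Zc3h12a level (CPM) on the differentiated side of the epidermis was 1.56-fold (1.13 to 2.17) that of the basal side in S1pr2fl/fl. In K14-Cre, where the sides were cut at another marker share, it was 0.908-fold (0.526 to 1.53). The epidermis level differed by 1.22-fold (0.908 to 1.64) between the sections, within counting error. With the TMM factor, which shifts the epidermis ratios by log2 -0.83, it was at least 2-fold lower in K14-Cre. Without that factor Zc3h12a was lower in K14-Cre by 1.74-fold (1.45 to 2.09) over all spots and by 3.34-fold (1.43 to 9.04) in fat and 2.67-fold (1.06 to 7.98) in muscle. Beside the fat value, muscle check markers in the fat layer were at 11319 CPM in S1pr2fl/fl and 33274 CPM in K14-Cre, and their part was not tested.

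**Figure D3:**
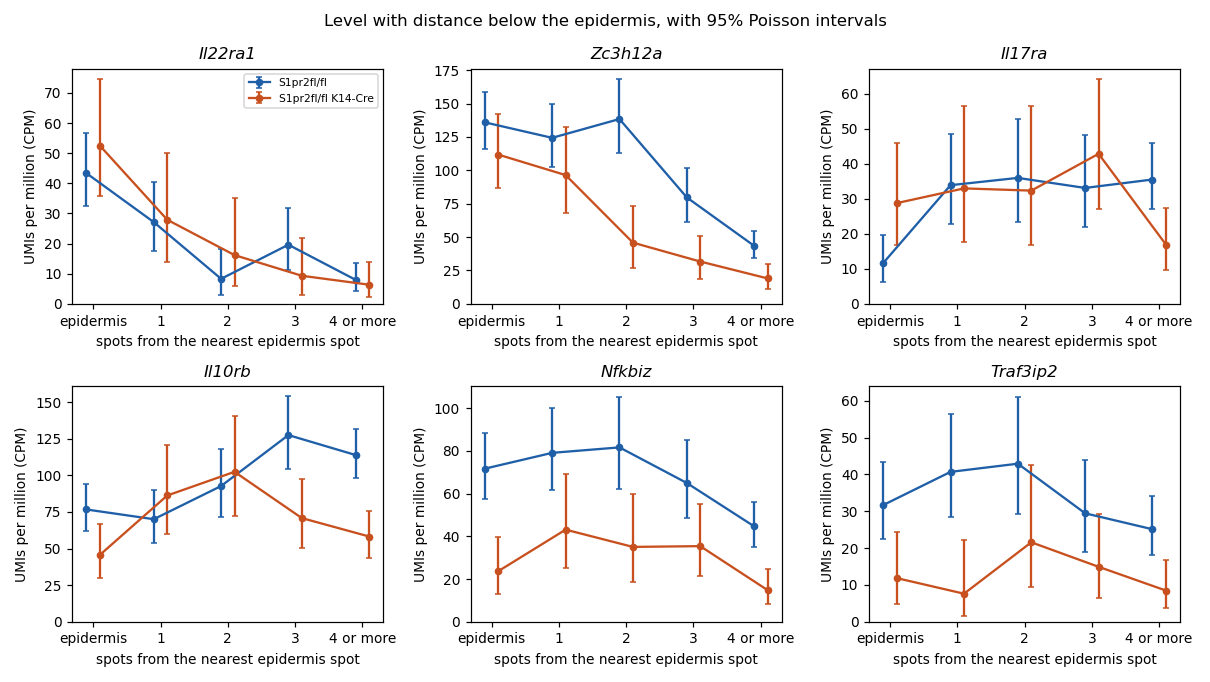
Level of 6 of the genes (CPM, with exact Poisson 95% intervals) in epidermis spots and in spots 1, 2, 3 and 4 or more steps from the nearest epidermis spot, for S1pr2fl/fl (blue) and K14-Cre (orange). Il22ra1 is highest in the epidermis of both sections, Il17ra is higher at the first step than in the epidermis in S1pr2fl/fl, from 11.7 to 33.9 CPM, and Traf3ip2 and Nfkbiz are lower in K14-Cre at each distance. The steps were chosen after the values were seen.

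Counted together, 2 of the 7 members with at least 20 UMIs (Il22ra1 and Zc3h12a) were at least 2-fold higher in the epidermis than in the other layers in S1pr2fl/fl, where 8.01% of all genes were, and 1 (Il17ra) was at least 2-fold lower, as were 37.3% of all genes. In K14-Cre 3 of 7 (Il17re, Il22ra1 and Zc3h12a) were higher, against 22.3% of all genes, and 0 lower, against 20.6%. The median log2 ratio of epidermis over other layers was 0.51 and 0.18 for the members and -0.59 and 0.05 for all genes.

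Between the sections over all spots, 0 of 7 members were at least 2-fold higher in K14-Cre, where 28.5% of all genes were, and 2 (Traf3ip2 and Nfkbiz) were at least 2-fold lower, where 4.59% of all genes were. The median log2 ratio was -0.52 for the members and 0.40 for all genes. Over all spots, the markers that define the muscle layer were at 16369 CPM in S1pr2fl/fl and 52864 CPM in K14-Cre. Those that define the epidermis were at 43529 and 14080 CPM. The sections thus held different mixes of tissue signal, and the part of this in the differences over all spots was not tested. In the epidermis 2 members (Il17ra and Il17re) were higher and 2 (Traf3ip2 and Nfkbiz) lower, against 27.7% and 11.0% of all genes. The share of higher members was near that of all genes there, and the median was -0.28 against 0.33. In the dermis 0 of 5 were higher (10.2% of all genes) and 0 lower (12.9%). In fat and in muscle 3 of 4 were lower, against 18.0% and 21.6% of all genes, and 0 higher, against 7.09% and 4.32%. The 3 were Il10rb, Nfkbiz and Zc3h12a in fat, and Il17ra, Nfkbiz and Zc3h12a in muscle. Il17ra in muscle was only just past the limit, 2.00-fold lower (0.820 to 5.57) from 21 and 7 UMIs, and within counting error. All 3 of the fat layer had their lowest level of the 4 layers in muscle in both sections, and the K14-Cre fat layer had more of the muscle markers. Within the muscle layer Il10rb, Nfkbiz and Zc3h12a were also lower in K14-Cre, by 1.84-fold (1.04 to 3.43), 4.34-fold (1.504 to 17.1) and 2.67-fold (1.06 to 7.98). The part of the muscle signal in the fat differences was not tested. In the spots of no layer 3 of 7 (Traf3ip2, Nfkbiz and Zc3h12a) were lower, against 8.52% of all genes, and 0 higher, against 24.1%. Beside these ratios, the differentiation list that helps define the epidermis was at 60430 CPM in the S1pr2fl/fl and 16375 CPM in the K14-Cre epidermis, and the basal list at 36199 and 31105 CPM. The epidermis lists of T cell, neutrophil and endothelial markers summed to 58.4, 55.9 and 34.2 CPM in S1pr2fl/fl and to 182.8, 142.2 and 111.7 CPM in K14-Cre, and those of macrophage, sebaceous gland and hair markers to 381.8, 215.1 and 15.01 CPM and to 629.8, 606.1 and 72.8 CPM. The chemosensory receptor genes, at 1.14 and 7.96 CPM per gene, were higher by more than the sum of any of these lists. The neutrophil sum rested mostly on Cxcr2 in S1pr2fl/fl, which was at 50.02 and 66.02 CPM. The other neutrophil markers had 0 to 3 UMIs each in S1pr2fl/fl and 4 to 11 UMIs each in K14-Cre. Among them Elane, Mmp8 and Ngp were higher by more than the chemosensory receptor genes, and Ly6g by less, all on these few UMIs. Within the endothelial list Kdr was at 5.00 and 45.7 CPM, while Pecam1 was at 12.5 and 6.77 CPM. The sebaceous gland sum rose mostly through Scd1, at 97.5 and 470.6 CPM. In the same list Soat1 was at 24.2 and 37.2 CPM and Elovl3 at 7.50 and 23.7 CPM, while Mgst1 was at 70.0 and 54.2 CPM and Dgat2l6 at 14.2 and 8.46 CPM. Langerhans and dendritic cell markers were at 997.9 and 1055 CPM, mostly from Cd74 (724.5 and 861.7 CPM), while H2-Aa was at 77.5 and 32.2 CPM and the Langerhans cell gene Cd207 at 25.01 and 23.7 CPM. In S1pr2fl/fl 1 of 9 T cell markers (Cd8a) and 2 of 7 neutrophil markers (Retnlg and Mpo) were at 0 in the epidermis, and none was at 0 in K14-Cre. The part of these cells in the members' differences was not tested.

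**Figure D4:**
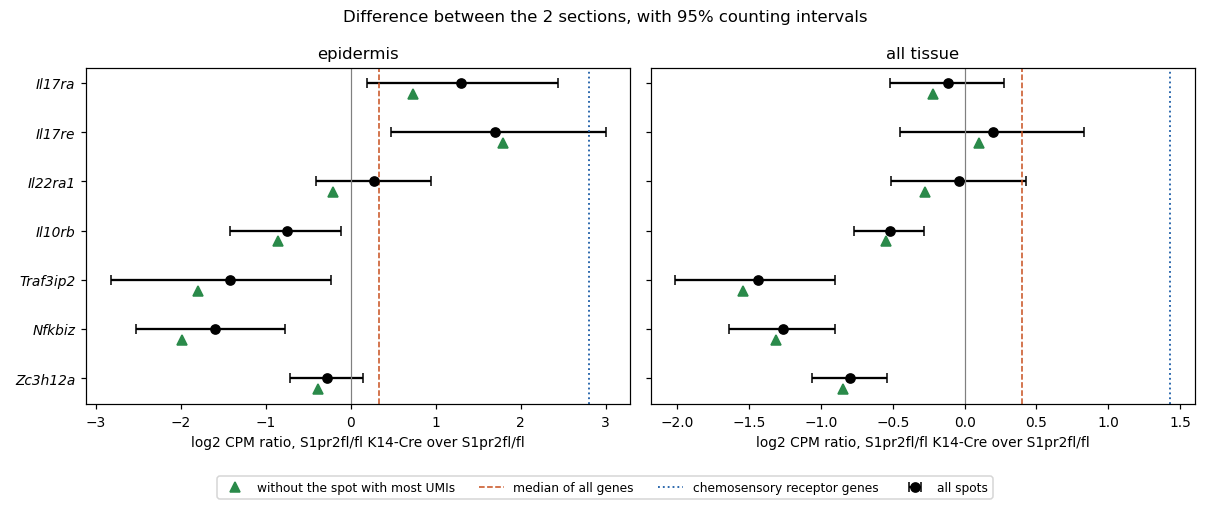
Log2 ratio of CPM, S1pr2fl/fl K14-Cre over S1pr2fl/fl, for the 7 members with UMIs in both sections, in the epidermis (left) and over all spots (right). Black points have 95% counting intervals, green triangles leave out the spot with most UMIs of the gene in each section, and vertical lines mark 0, the median of all genes (dashed) and the chemosensory receptor genes together (dotted). Traf3ip2 and Nfkbiz lie at least 2-fold below 0 in both panels, and Il17ra loses its 2-fold rise without 1 spot.

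The other genes of the pathway were counted in lists. Of 13 ligand genes of the IL-17, IL-22 and related families, 3 had at least 20 UMIs over both epidermis layers, and all 3 were at least 2-fold higher in K14-Cre, against 27.7% of all genes. They were Il17b with 14 and 19 UMIs, Il17f with 14 and 18 UMIs and Il19 with 10 and 13 UMIs in S1pr2fl/fl and K14-Cre, levels of 8.34 to 11.7 and 22.01 to 32.2 CPM. These differences of log2 1.38 to 1.46 were smaller than that of the chemosensory receptor genes (2.80), and 0 of the 3 reached 2-fold with the TMM factor. The ligand genes Il17a (4 and 3 UMIs), Il17c (5 and 9) and Il22 (5 and 0) fell short of the minimum of 20 UMIs. Of 7 further receptor genes, 3 had enough UMIs and all 3 were at least 2-fold lower, against 11.0% of all genes. Il20rb, a chain of the receptors of IL-19, IL-20 and IL-24, was 2.38-fold lower, at log2 -1.25 (-1.81 to -0.73), from 174 and 36 UMIs. Like Il22ra1 it was at least 2-fold higher in the epidermis than in the other layers in both sections, by log2 1.51 (1.15 to 1.88) and 1.92 (1.14 to 2.73). Il22ra2, the decoy receptor of IL-22, had 18 and 4 UMIs, and Il20ra 17 and 4, with intervals that include no difference.

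In IL-17 signalling behind Act1, 7 of 20 genes with enough UMIs were at least 2-fold higher in the K14-Cre epidermis and 2 lower, shares near the 27.7% and 11.0% of all genes. The median log2 was 0.14 against 0.33 for all genes. With the TMM factor 0 were higher and 6 lower. Nfkb1, the gene of the NF-κB subunit p50, was higher by log2 1.63 (1.34 to 1.93). Cebpb, a transcription factor of the pathway, was at log2 0.33 (0.20 to 0.47) and Mapk14 at -0.15 (-0.44 to 0.14). In IL-22 signalling 1 of 8 genes was higher and 1 lower, against the same 27.7% and 11.0%, with a median of 0.15. With the TMM factor 0 were higher and 4 lower. Stat3, the main transcription factor of IL-22, was at log2 -0.97 (-1.35 to -0.60), from 298 and 75 UMIs, and the kinase gene Jak1 was at -0.43 (-0.79 to -0.07). Bcl2l1 and Socs3 were at -0.31 (-0.79 to 0.15) and 0.61 (-0.01 to 1.21).

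Of the genes that keratinocytes are known to induce under IL-17 and IL-22, 11 of 18 with enough UMIs were at least 2-fold lower in the K14-Cre epidermis, against 11.0% of all genes, and 1 was higher, against 27.7%. Their median log2 was -1.15 against 0.33. S100a9, a calgranulin subunit, was lowest among those with most UMIs, at log2 -2.83 (-2.92 to -2.75), from 19181 and 1324 UMIs. Its partner S100a8 was at -1.20 (-1.25 to -1.14), and the hyperproliferation keratins Krt16 and Krt6b at -1.60 (-1.65 to -1.55) and -1.23 (-1.27 to -1.18). Of the same list, 16 of 21 genes in S1pr2fl/fl and 17 of 23 in K14-Cre were at least 2-fold higher in the epidermis than in the other layers, against 8.01% and 22.3% of all genes. This list overlaps keratinocyte differentiation genes, which were themselves lower in the K14-Cre epidermis, and their part was not tested.

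Across the 8 points of 4 layers in 2 sections, the genes whose levels ran most alike were taken by Pearson correlation of log2(CPM + 1), out of 7584 genes. The points share libraries and depth, so the values are descriptions. For Il22ra1 they were Ccdc120, Mif and Grhl3 (a transcription factor of the epidermal barrier), all at 0.99, and Prrg4 was also among the 5 most alike. Il17ra ran most like Angptl4 (0.98), Rin2, Man2b2, Hebp1 and Srgn, and Il10rb most like Cflar (0.98), Tars, Edem1, Amotl2 and Acin1. Zc3h12a ran most like Gipc1 and Slc37a2 (both 0.98), Arpc1a, Chmp1b and Nkpd1. Nfkbiz was closest to Axin1 (0.99), Csnk1g3, Top2b, Znhit2 and Ppp4c. Traf3ip2 was closest to Rlim (0.96), Psma1, Stip1, Atp6v1b2 and Klf3.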

How the data were processed

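The authors deposited unnormalized counts of UMIs for each gene in each spot over tissue, made with Space Ranger 3.0.0 per the file headers. The submitters' notes name the build mm10, and the paper names Partek Flow for the images and reads. The probe set is not given in the sources used here. Members, gene lists and background were chosen with earlier results of these data known.

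Spots with at least 500 UMIs went to the layer whose marker share had the highest percentile within its section, if this was at least 80. Counts were summed per layer and given as CPM (per 1000000 UMIs of the layer). Intervals (95%) are exact Poisson, and conditional binomial for ratios (Python 3.11.15, numpy 2.4.6, scipy 1.17.1). A gene is called at 2-fold with at least 20 UMIs over both sides. A count of 0 was taken to allow 3 UMIs. The code was tested on simulated data. Genes named by rule are the 8 members, up to 4 of each pathway list with most epidermis UMIs, and the 5 most alike. Some ligand genes below the UMI minimum and some cell type markers are named besides. Under this rule 2 genes are not reported here. Promoters matched for 4 of 8 members. Alternatives were other spot filters, percentiles and epidermis definitions, thinning to 1000 UMIs, means over spots, subtraction of the receptor gene mean, the TMM factor of edgeR 4.0.16, and, chosen after seeing the data, leaving out the richest spot and counting each spot once.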

Additional observations from a re-analysis of the deposited data

How the results depend on the processing

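No paired analysis was possible because each genotype had 1 section. Of the log2 ratios of single members, 246 between the sections and 106 between layers stayed within their counting interval under the alternatives, and 22 and 5 moved beyond it. Counts of members at least 2-fold apart moved as follows. In the epidermis, the 2 higher in K14-Cre became 1 at the 90th percentile, with the receptor gene mean taken off, in the 2 uppermost spots of each array column, without the richest spot and with each spot counted once, and 0 with the TMM factor and after thinning. The 2 lower there became 4 with the TMM factor, which shifts the epidermis ratios by log2 -0.83 and adds Il10rb and Zc3h12a. They became 0 after thinning. Thinning leaves fewer UMIs, and also took the 2 lower over all spots to 0, the 3 in muscle to 0 and the 3 in fat to 1. The 90th percentile took the 3 in fat to 1 as well. In the dermis, 0 lower became 1 with the receptor gene mean taken off, without the richest spot and with each spot counted once. The 2 members higher in the S1pr2fl/fl epidermis than in other layers became 1 with each spot counted once, when Zc3h12a was at log2 0.92. In the pathway lists, 21 counts of higher and 13 of lower genes moved by over 1.5 times, mostly with another UMI minimum. With the TMM factor the epidermis counts between the sections went from 7 to 0 higher and 2 to 6 lower genes of IL-17 signalling, from 1 to 0 and 1 to 4 of IL-22 signalling, from 3 to 0 higher ligands and from 1 to 0 higher targets. The causes were not tested.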
